A study of Mus musculus with 6 samples.

Results

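Nuclear receptors are transcription factors that carry a DNA-binding domain of zinc fingers and a pocket for small lipophilic ligands such as hormones, vitamins, fatty acids and sterols. The genes described here are 42 mouse members of the superfamily, all of them chosen by name; the corticosteroid receptors and the Rev-erb genes were not among them. Of the 42 genes, 40 had at least 1 probe whose single symbol in the supplied platform annotation was theirs, out of 19640 genes so represented, and these 40 had 64 of the 38467 probes. Nr1h2 and Nr2e3 had no such probe and are not analysed here. Esrrb and Nr0b1 had too few values, because 2 values in each group were required, which left 38 measured members.

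C3H10T1/2 is a mouse mesenchymal cell line, grown here in medium with fetal bovine serum, that can be led into the fat, bone, cartilage or muscle lineage. The vehicle cultures received DMSO and the dexamethasone cultures 1 µM of this synthetic glucocorticoid, both for 90 minutes, with 3 biological replicates each per the series description and no genetic change in either group. Each of the 6 two-colour arrays compared a culture (Cy3) with a common pool of RNA (Cy5), and the labels and the series description differ on whether myostatin-treated cells were part of that pool. Values are therefore log2 ratios to the pool: a difference between the groups can be read, but no level, so it cannot be shown from them which receptors the line expresses, nor can its mesenchymal label be checked.

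The glucocorticoid receptor that dexamethasone activates belongs to the same superfamily. Members act alone, as pairs of the same protein, or as pairs with an RXR partner, and many respond to the products of other members' target genes. In mesenchymal cells Pparg is the master regulator of fat cell formation, and Vdr, the receptor of active vitamin D, is best known for its part in calcium and bone metabolism. The 3 NR4A members are immediate early genes whose transcription answers a stimulus quickly, and they are regulated mainly through their amount because no classical ligand is needed.

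Only 2 members, Vdr and Nr4a1, lay far from vehicle on every dexamethasone array. Vdr was 3.15-fold higher with dexamethasone and Nr4a1 3.70-fold higher. Differences among the other members were small, such as those of Ppard, Nr4a2 and Nr2f1, or uneven between the arrays or between a gene's probes. On 2 of the 3 Pparg probes all dexamethasone values lay below all vehicle values, by 1.00 and 0.48, but not on the third. Limma's test called 0 of the 38 members at a Benjamini-Hochberg adjusted p under 0.05, and 0% of all 27046 genes and unnamed probes. Without probes of low signal it called 1 member, Vdr, among 29 of 17152 features (0.169%), and this call was lost with median centring, with either block and without any 1 of 5 of the 6 arrays.

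The direction of the ratios is likely rather than stated: sample over pool was assumed because the textbook glucocorticoid targets Fkbp5 (3.93 ± 0.35, SE, dexamethasone minus vehicle, log2) and Tsc22d3 (1.95 ± 0.34) were then higher with dexamethasone. If the ratio was taken the other way, every "higher" and "lower" changes places. The lowest Spearman correlation between any 2 arrays, vehicle 2 and dexamethasone 3, was -0.33 across all probes. Replicates of a group did not always correlate: vehicle 3 reached 0.073 and 0.072 with vehicle 1 and 2. Dexamethasone 1 reached -0.225 and -0.27 with dexamethasone 2 and 3. Vehicle 1, vehicle 2 and dexamethasone 1 correlated with each other at 0.397 to 0.546. Vehicle 3, dexamethasone 2 and dexamethasone 3 did so at 0.34 to 0.574. The arrays were of unequal quality. A value was taken as low signal if it was missing, equalled the log2 of a quotient of whole numbers no higher than 10, or exceeded 10 in size. A value of ordinary signal can equal such a quotient by coincidence, and how many did was not estimated. Values that met the rule made up 3.27% and 4.13% of the probes on vehicle 1 and vehicle 2 and 8.19% on dexamethasone 1. On vehicle 3, dexamethasone 2 and dexamethasone 3 they made up 10.2%, 17.6% and 22.9%. The first 3 of these arrays are called the first set below and the other 3 the second set. Across all features the median difference was 0.32, since the deposited columns were not centred. Over the features left without probes of low signal it was 0.17. The members' differences should be read from the first of these points over all probes, and from the second where probes of low signal are left out.

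On the members' 64 probes no value lay beyond 10 in size. Vehicle 1 and vehicle 2 had 0 missing values, vehicle 3 and dexamethasone 1 had 2 each, dexamethasone 2 had 1 and dexamethasone 3 had 8. Quotients of small whole numbers were seen for 1, 2 and 4 probes on vehicle 1, 2 and 3, and for 0, 5 and 9 probes on dexamethasone 1, 2 and 3. In all, 39 of the 64 probes were clear of such values on all 6 arrays, and 25 of the 38 measured members had at least 1 clear probe.

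Stretches before an annotated start of 4 genes are shown. These include the member called after the low-signal filter and the NR4A trio, whose members differed in their behaviour. The sequences are from RefSeq (GRCm38.p6), the 250 bases before 1 annotated start, 5′ to 3′ on the gene's strand. The table held a promoter for 39 of the 42 genes. For Vdr and Nr4a2 the stretch borders the gene's RefSeq span. For Nr4a1 and Nr4a3, whose spans begin at 101253902 and 48045078, it lies wholly or mostly inside the span. Capitals mark each TGACG or its reverse complement, the core of the site bound by CREB-type factors. Vdr lies at chr15:97908297-97908546 on the minus strand, Nr4a1 at chr15:101266596-101266845 on the plus strand, Nr4a2 at chr2:57124004-57124253 on the minus strand and Nr4a3 at chr4:48045055-48045304 on the plus strand.
Vdr: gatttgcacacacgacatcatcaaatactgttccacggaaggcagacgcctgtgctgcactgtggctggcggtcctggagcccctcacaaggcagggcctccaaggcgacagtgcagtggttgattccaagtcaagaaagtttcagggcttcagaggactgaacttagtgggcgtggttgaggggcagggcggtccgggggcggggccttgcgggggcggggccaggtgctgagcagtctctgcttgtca
Nr4a1: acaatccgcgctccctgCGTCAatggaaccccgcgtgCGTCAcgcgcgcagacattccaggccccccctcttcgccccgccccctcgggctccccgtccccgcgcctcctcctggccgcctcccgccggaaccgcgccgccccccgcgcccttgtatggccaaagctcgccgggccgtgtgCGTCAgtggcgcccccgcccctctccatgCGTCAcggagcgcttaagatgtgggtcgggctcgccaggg
Nr4a2: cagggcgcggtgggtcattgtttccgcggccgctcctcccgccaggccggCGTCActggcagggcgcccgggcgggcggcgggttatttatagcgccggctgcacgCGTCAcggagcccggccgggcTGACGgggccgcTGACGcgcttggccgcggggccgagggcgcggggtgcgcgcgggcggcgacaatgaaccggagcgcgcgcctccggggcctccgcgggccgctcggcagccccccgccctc
Nr4a3: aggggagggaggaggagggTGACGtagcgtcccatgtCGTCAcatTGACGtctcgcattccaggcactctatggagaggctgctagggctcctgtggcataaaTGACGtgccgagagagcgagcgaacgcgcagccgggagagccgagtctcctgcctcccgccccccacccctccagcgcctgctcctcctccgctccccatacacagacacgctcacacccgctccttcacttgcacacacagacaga

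Nr4a1, Nr4a2 and Nr4a3 each held 4 copies of TGACG on either strand in this window. Such a motif occurred at least once in 17.8% of the 32851 promoters of the table, and 4 or more copies in 45 promoters, or 0.137%; the count of 4 was chosen after the sequences were seen. Of the members' 60 promoters, which belong to 39 genes, 13 had at least 1 copy, each from a different gene. The full palindrome TGACGTCA, which contains 2 overlapping copies of TGACG, was in 1.55% of all promoters and in 1 member, Nr2e1. AGAACA, the arm from which the palindromic glucocorticoid response element is built, was in 16.1% of all promoters and in 3 members (Esrrb, Nr5a2 and Thrb). The palindrome itself was in 3 of the 32851 promoters and in 0 members. AAAGGTCA, the motif bound by NR4A proteins, was in 1.34% of all promoters and in Rxra and Rxrg. The CArG box was in 1.47% and in Nr2f6. None of these motifs was found in the Vdr window. A match describes letters within 250 bases and is not a measured binding site.

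Vdr was the member with the smallest p. Its probe mMC023547 read -1.07, -1.33 and -1.21 on vehicle arrays 1, 2 and 3 and 0.47, 0.86 and 0.86 on dexamethasone arrays 1, 2 and 3. Its probe mMR026817 read -0.93, -0.90 and -0.94 with vehicle and 0.35, 0.53 and 0.48 with dexamethasone. On both probes every vehicle value lay below the pool and every dexamethasone value above it, and the groups did not overlap. The gene mean was -1.06 ± 0.06 with vehicle and 0.59 ± 0.16 with dexamethasone (SD, n = 3 each), a difference of 1.66 ± 0.18 (SE) on the log2 scale. Limma's unadjusted p was 0.000224 and its Benjamini-Hochberg adjusted p 0.188 over all features. After the low-signal filter the difference was the same, with an SE of 0.14 and a limma adjusted p of 0.0441, so that Vdr was 1 of the 26 features called higher. Within the first set of arrays the difference was 1.47 and within the second 1.76, so it was of like size in both. The call was lost when the filtered arrays were each centred on their median (difference 1.53, limma adjusted p = 0.0783) and without any single array other than dexamethasone 1 (limma adjusted p from 0.129 to 0.488).

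Nr4a1, also known as Nur77, had a single probe, which was clear on all arrays. It read -0.53, -1.03 and -0.88 with vehicle and 0.95, 0.76 and 1.51 with dexamethasone. The 3 dexamethasone values were all above the pool and the 3 vehicle values all below it. The means were -0.81 ± 0.26 and 1.07 ± 0.39 (SD, n = 3 each), a difference of 1.89 ± 0.29 (SE). Limma's unadjusted p was 0.00113, with an adjusted p of 0.287 over all features and 0.135 after the low-signal filter, so the difference did not pass. It was 1.73 within the first set of arrays and 2.02 within the second. Without dexamethasone 1 and with the filter, the limma adjusted p was 0.0491, in a fit that called 934 of 17152 features (5.45%); both dexamethasone arrays then left belong to the second set and 2 of the 3 vehicle arrays to the first.

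The other NR4A genes did not follow Nr4a1. For Nr4a2 (Nurr1) the probe mMC020469 read -0.13, -0.08 and -0.21 with vehicle and -0.47, -0.86 and -1.10 with dexamethasone. The probe mMR030449 read 0.13, 0.09 and -0.03 with vehicle and -0.30, 0.05 and -0.19 with dexamethasone. On the first probe the dexamethasone values all lay below the vehicle values, while on the second the groups overlapped. The gene's difference was -0.44 ± 0.18 (SE), 1.36-fold lower, with a limma unadjusted p of 0.0551 and an adjusted p of 0.732. The difference was -0.39 in the first set of arrays and -0.41 in the second.

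For Nr4a3 (Nor1) the 3 probes were clear of low signal by the filter but did not behave alike. The gene means were 0.30, -0.18 and 0.25 with vehicle and -0.50, 1.13 and 1.83 with dexamethasone. The probe differences were -0.05, 0.42 and 1.71. Dexamethasone 1 lay below all vehicle arrays on each probe, whereas dexamethasone 3 lay above them on each, so the groups overlapped. The difference of 0.70 ± 0.65 (SE) had a limma adjusted p of 0.734, and it was -0.56 within the first set of arrays and 1.23 within the second. The trio, each with 4 TGACG copies in the sequences shown above, thus had 1 member higher on every array, 1 lower on every array by gene mean, and 1 that differed in sign between the array sets.

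**Figure D1:**
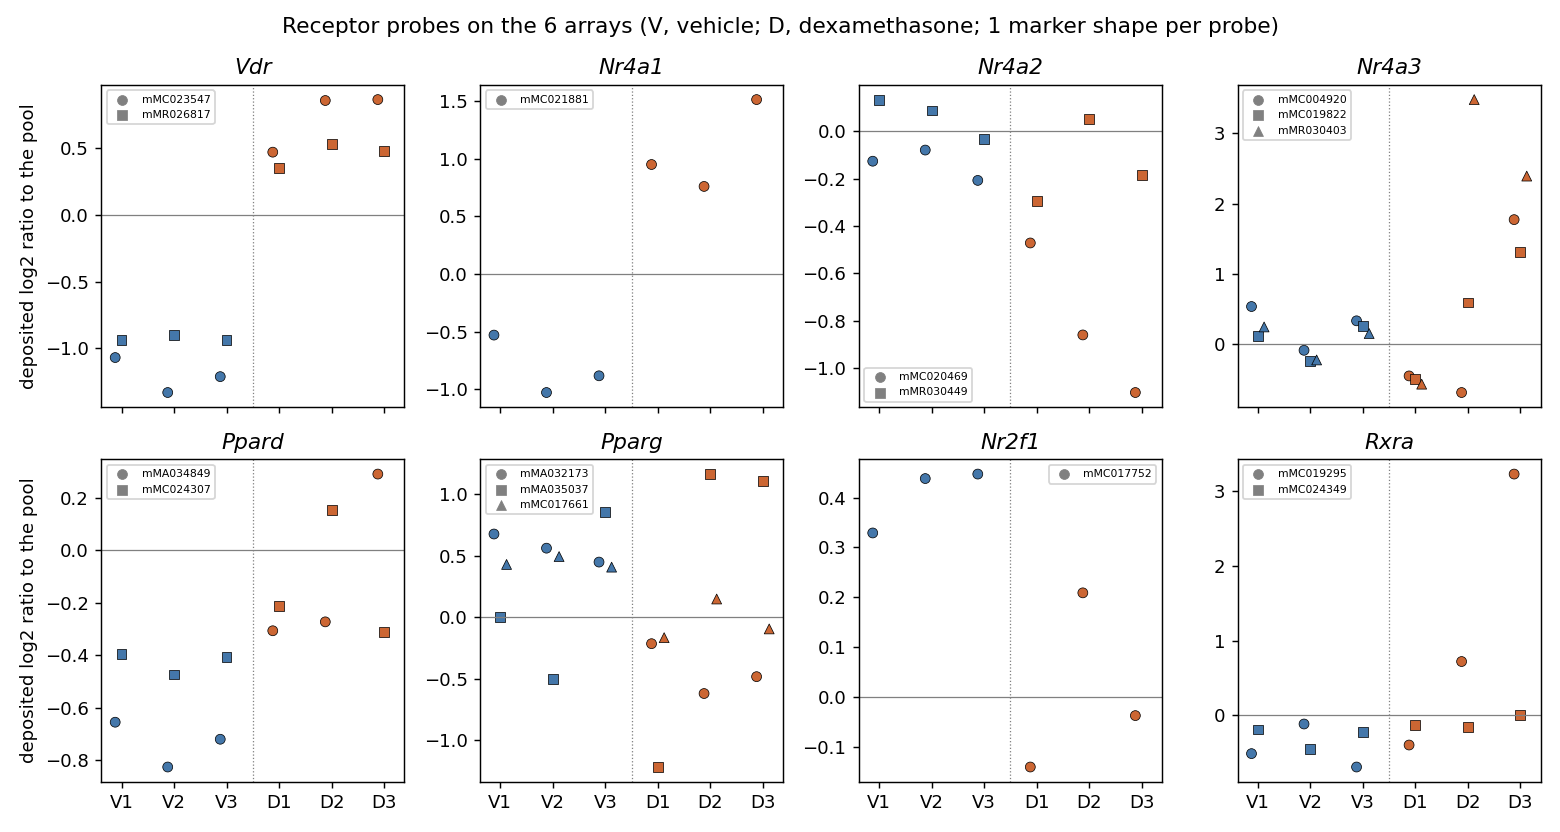
Deposited log2 ratios to the pool (vertical axis, own scale in each panel) of each probe of 8 receptor genes on the 3 vehicle arrays (V1 to V3, blue) and the 3 dexamethasone arrays (D1 to D3, orange); marker shapes tell the probes apart. Both Vdr probes and the Nr4a1 probe lie below 0 on all vehicle arrays and above 0 on all dexamethasone arrays, whereas the probes of Nr4a3, Pparg and Rxra disagree.

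The PPARs sense fatty acids and their derivatives. Ppard, the widely expressed form, read -0.53, -0.65 and -0.56 with vehicle and -0.26, -0.06 and -0.01 with dexamethasone by gene mean, and the groups did not overlap. Its difference was 0.47 ± 0.17 (SE), 1.39-fold, with a limma unadjusted p of 0.0420 and an adjusted p of 0.732. The median shift of all features was 0.32, and with each array centred on its median the Ppard difference was 0.16. Both Ppard probes were clear of low signal. After the low-signal filter the median shift was 0.17, and with the filter and median centring Ppard differed by 0.34. On its probe mMA034849 the difference was 0.64 and on mMC024307 it was 0.30.

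Pparg had 3 probes, all clear, that disagreed. The probe mMA032173 read 0.68, 0.56 and 0.45 with vehicle and -0.22, -0.62 and -0.48 with dexamethasone, and mMC017661 read 0.43, 0.49 and 0.41 against -0.17, 0.15 and -0.10. On both of these the dexamethasone values lay below all vehicle values, by 1.00 ± 0.19 (SE) and 0.48 ± 0.16 (SE) on the log2 scale, with limma adjusted p of 0.360 and 0.694 when each probe was tested on its own. The probe mMA035037 read 0.00, -0.51 and 0.86 with vehicle and -1.22, 1.16 and 1.11 with dexamethasone, a spread wider than any difference between the groups. The mean of the 3 probes differed by -0.42 ± 0.29 (SE; limma adjusted p = 0.732). It was -0.81 in the first array set and -0.37 in the second, and below 0 under every alternative run.

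Ppara, the form known from liver and oxidative tissues, ran from -1.25 to 0.61 with vehicle and from -0.83 to 2.61 with dexamethasone. Its difference of 1.52 ± 1.07 (SE) was -0.15 in the first set of arrays and 1.72 in the second. Nr1h3, which encodes the oxysterol receptor LXR alpha, read -0.23, -0.77 and -1.77 with vehicle and -1.09, 0.79 and 1.23 with dexamethasone. Its difference of 1.23 ± 0.76 (SE) likewise changed sign between the sets (-0.59 and 2.78). On vehicle 3, the only vehicle array of the second set, its 2 probes disagreed, with -4.67 on mMA035132 and 1.13 on mMC019997. Neither Ppara nor Nr1h3 passed limma's test (adjusted p = 0.732 for both).

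RXR proteins are the shared partners of the vitamin D, thyroid hormone, retinoic acid, PPAR and LXR receptors. Rxra read -0.35, -0.28 and -0.45 with vehicle and -0.26, 0.29 and 1.62 with dexamethasone, so that the groups did not overlap by gene mean. Its 2 probes differed in size, with 1.62 ± 0.97 (SE) for mMC019295, where the groups overlapped, and 0.19 ± 0.16 (SE) for mMC024349. Rxrb differed by -0.19 ± 0.18 (SE), from 0.03, -0.03 and 0.14 with vehicle to 0.05, -0.26 and -0.22 with dexamethasone. Rxrg, whose only probe had a low-signal value, differed by 1.66 ± 1.19 (SE). None of the 3 passed (limma adjusted p from 0.732 to 0.738).

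Among the other hormone and retinoid receptors the clear probes moved little. Thra, the main thyroid hormone receptor of many tissues, differed by 0.11 ± 0.20 (SE), with 0.04, -0.16 and 0.02 for vehicle and 0.13, -0.17 and 0.25 for dexamethasone. Rara read -0.19, -0.40 and -0.34 against -0.26, -0.08 and 0.16, a difference of 0.25 ± 0.20 (SE). Rarg read -0.05, -0.21 and 0.12 against -0.12, 0.23 and 0.30, a difference of 0.18 ± 0.21 (SE). In all 3 genes the groups overlapped and the difference was below the median shift of all features, 0.32. Against the median shift after the low-signal filter, 0.17, Thra was lower and Rara and Rarg were slightly higher. Thrb differed by -0.16 ± 0.44 (SE). Rarb, itself a retinoic acid target, had a difference of 2.03 ± 0.95 (SE) that was -0.20 in the first set of arrays and 3.94 in the second; its clear probe alone gave 0.42 ± 0.71 (SE, limma adjusted p = 0.773 after the filter). Of the 6 genes in this group, Vdr alone had a limma unadjusted p under 0.05.

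The COUP-TF genes Nr2f1 and Nr2f2 encode orphan receptors of mesenchymal and neural development. Nr2f1 read 0.33, 0.44 and 0.45 with vehicle and -0.14, 0.21 and -0.04 with dexamethasone, on 1 clear probe, so the dexamethasone values were all lower. The difference was -0.39 ± 0.18 (SE), 1.31-fold, with a limma unadjusted p of 0.0856 and an adjusted p of 0.732. It was -0.52 in the first array set and -0.36 in the second, and it was -0.70 with each array centred on its median and -1.35 after quantile normalization, with limma adjusted p of 0.738 and 0.792. After the low-signal filter its limma unadjusted p was 0.0436 and its adjusted p 0.574.

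Nr2f2 had 1 quiet probe and 1 that spread widely. The probe mMC019812 read 0.32, 0.53 and 0.53 with vehicle and 0.29, 0.15 and 0.11 with dexamethasone, and mMR027871 read -0.05, -0.27 and -0.24 against -1.26, 1.43 and 1.91. The first was 0.28 ± 0.16 (SE) lower and the second 0.88 ± 0.89 (SE) higher. Their mean, 0.30 ± 0.44 (SE), hides this disagreement. Nr2f6 differed by 0.15 ± 0.21 (SE), Nr2c1 by -0.26 ± 0.27 (SE) and Nr2c2, whose 6 values ran from 0.01 to 0.18, by -0.07 ± 0.16 (SE). Nr2e1, a receptor of the neural lineage, read 0.24, 0.28 and 0.21 with vehicle and 0.49, 0.72 and 3.04 with dexamethasone; its groups did not overlap, but the difference of 1.17 ± 0.74 (SE) rested on dexamethasone 3.

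The estrogen-related receptor Esrra, a regulator of mitochondrial genes, read 0.07, 0.01 and 0.03 with vehicle and -0.04, 0.14 and -0.96 with dexamethasone, a difference of -0.32 ± 0.34 (SE) that came from 1 array. Esr1, the main estrogen receptor, read -0.35, -0.90 and 0.66 with vehicle and -1.46, 1.11 and 1.83 with dexamethasone, and neither of its probes was clear. Its difference was 0.69 ± 0.98 (SE). Esrrg, with 3 probes that each lacked a value on 1 dexamethasone array, differed by 1.67 ± 0.67 (SE, limma unadjusted p = 0.0546, adjusted p = 0.732). Its probes disagreed, with differences of -0.89, 1.91 and 2.90, and its dexamethasone 3 value rested on the last of these alone. Esr2 (0.86 ± 1.31, SE) and Pgr (0.21 ± 0.82, SE) each lacked a value on dexamethasone 3.

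None of the remaining members had an unadjusted limma p under 0.05. Rora, a receptor linked to the circadian clock, differed by 0.74 ± 0.38 (SE); on mMA032414, 1 of its 2 clear probes, it read -0.04, -0.19 and -0.11 with vehicle and 0.34, 0.36 and 0.12 with dexamethasone, 0.39 ± 0.16 (SE) higher, and on the other it differed by 0.88 ± 0.85 (SE). Rorb differed by 0.86 ± 0.83 (SE). Of the receptors known from liver and gut, Hnf4a differed by 1.07 ± 0.80, Hnf4g by 0.71 ± 1.63, Nr1i2 by 1.08 ± 0.72, Nr1i3 by 0.35 ± 0.36 and Nr1h4 by -0.25 ± 1.52 (SE each). Of the steroidogenic and germ cell receptors, Nr5a1 differed by 0.51 ± 0.33, Nr5a2 by -0.27 ± 0.30 and Nr6a1 by 1.36 ± 1.19 (SE each), the last with a single value of 4.25 on dexamethasone 2. Nr0b2, an inhibitor of other receptors that has no DNA-binding domain, differed by 2.04 ± 1.19 (SE) on a probe with no value on vehicle 3. Within the first set of arrays, and with the set as a block, its difference was 0.16. The limma adjusted p of these genes lay between 0.732 and 0.956.

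**Figure D2:**
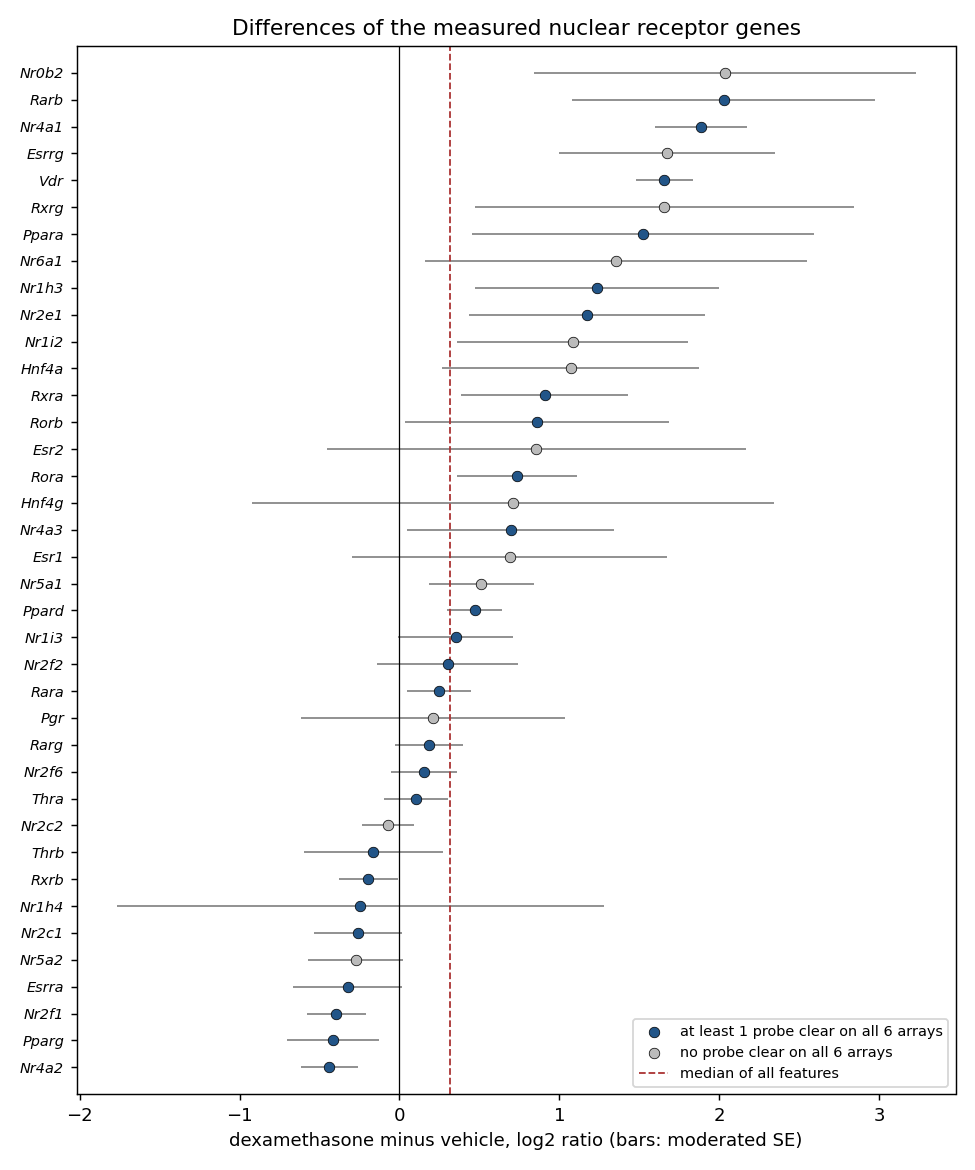
Dexamethasone minus vehicle difference in log2 ratio (horizontal axis) of the 38 measured nuclear receptor genes (vertical axis, ordered by difference), with bars for the moderated standard error; blue points have at least 1 probe clear of low signal on all arrays and grey points none. Vdr and Nr4a1 combine a large difference (1.66 and 1.89) with a short bar, and most other large differences have bars over 0.5; the dashed line marks the median of all features, 0.32.

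As a family, 28 of the 38 members had a difference above 0 and 10 below, beside 18446 above and 8600 below of all 27046 features. The members' median was 0.60, beside 0.32 for all features. At an unadjusted limma p under 0.05 there were 3 members higher (Vdr, Nr4a1 and Ppard) and 0 lower, beside 4.43% higher and 0.995% lower among all features. All 3 dexamethasone values lay above all 3 vehicle values for 5 members (Vdr, Nr4a1, Ppard, Rxra and Nr2e1), beside 8.42% of all features, and below them for 2 (Nr4a2 and Nr2f1), beside 6.16%. As shares of the 38 members, the higher counts were 7.89% and 13.2%, above those of all features, and the lower ones 0% and 5.26%, below them. Each rests on at most 5 genes, and no test of the difference in shares was made. The split between directions moved with the scaling. With each array centred on its median 22 members lay above 0 and 16 below, and after quantile normalization 20 and 18. The median difference of all features was then 0.018 and -0.034, and their split was not counted. Under both scalings 2 members were higher at an unadjusted limma p under 0.05 (Vdr and Nr4a1) and 2 lower (Nr2f1 and Pparg). Of all 27046 features, 787 were higher and 278 lower with centring, 3.94% for both directions together. With quantile normalization these were 681 and 424, or 4.09% together. Centred, Vdr differed by 1.35, Nr4a1 by 1.58, Nr2f1 by -0.70 and Pparg by -0.72, and the limma adjusted p of each was 0.738. Without dexamethasone 1 the count at an unadjusted p under 0.05 was 16 in place of 3, but 29.2% of all features were under 0.05 in that fit against 5.43% with all arrays, and both dexamethasone arrays left come from the second set.

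Among the 17152 features left by the low-signal filter were 25 members. Limma's adjusted p was under 0.05 for 1 of these, Vdr, higher, and for 0 lower, beside 0.152% higher and 0.0175% lower of all features that passed. At an unadjusted p under 0.05 there were 3 higher and 2 lower (Nr4a2 and Nr2f1), beside 4.90% and 2.56%. The groups were apart in the higher direction for 5 and in the lower direction for 3, the third being Nr2c1, beside 10.4% and 9.33%. Vdr was still below 0.05 in that fit without dexamethasone 1 (adjusted p = 0.0304, with 5.45% of all features called), and not with the array sets as a block (0.147) or with the replicate numbers as a block (0.568).

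The sets were spread unequally over the groups, with 2 of the 3 dexamethasone arrays but 1 of the 3 vehicle arrays in the second. With the set as a block in the fit the members' median difference was 0.21 in place of 0.60, and that of all features 0.10 in place of 0.32. Within the first set the median over 37 members was -0.09, with 15 above 0, and within the second it was 0.53, with 28 above 0. For all features the medians were -0.05 and 0.26, with 11109 and 16383 of 26196 above 0. The sign was the same in both sets for 22 of the 37 members, or 59.5%, beside 52.0% of all features. Vdr and Nr4a1 were the only members with a difference above 1 in both sets.

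**Figure D3:**
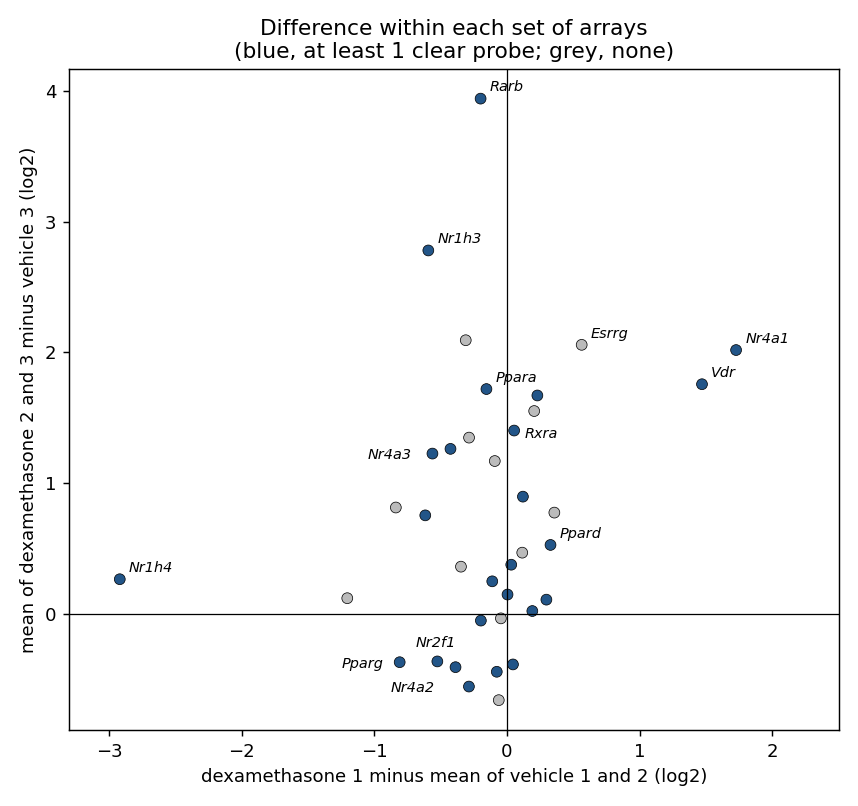
Difference of each member within the first set of arrays (dexamethasone 1 minus the mean of vehicle 1 and 2, horizontal axis) and within the second (mean of dexamethasone 2 and 3 minus vehicle 3, vertical axis), in log2 ratio; blue points have at least 1 clear probe and grey points none. Vdr and Nr4a1 stand apart at the right, Nr4a2, Nr2f1 and Pparg are below 0 in both sets, and Rarb and Nr1h3 are high in the second set only.

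Members known to be restricted to particular tissues, such as liver, gut, gonad, retina or brain, differed from widely expressed members in how far their values spread. Over 13 restricted members the median SD between arrays was 0.60 with vehicle and 1.41 with dexamethasone, and over 12 widely expressed members it was 0.08 and 0.22. The median differences were 0.86 and 0.13. Low-signal values made up 16.7% of the restricted members' values, 5.26% in the first array set and 28.1% in the second, but 3.51% in both sets for the widely expressed members. The dexamethasone SD was the larger one in 34 of the 38 members, or 89.5%, and in 80.7% of all features, whose median SDs were 0.26 and 0.84. Markers of cell types that the line is not thought to contain had median differences of 0.95 for 5 blood markers, 1.25 for 4 endothelial and 1.16 for 4 epithelial ones, against -0.43 for 10 mesenchymal markers; 1 of 8 blood, 2 of 5 endothelial, 2 of 4 epithelial and 24 of 27 mesenchymal probes were clear. The part of low signal in the restricted members' differences was not tested.

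**Figure D4:**
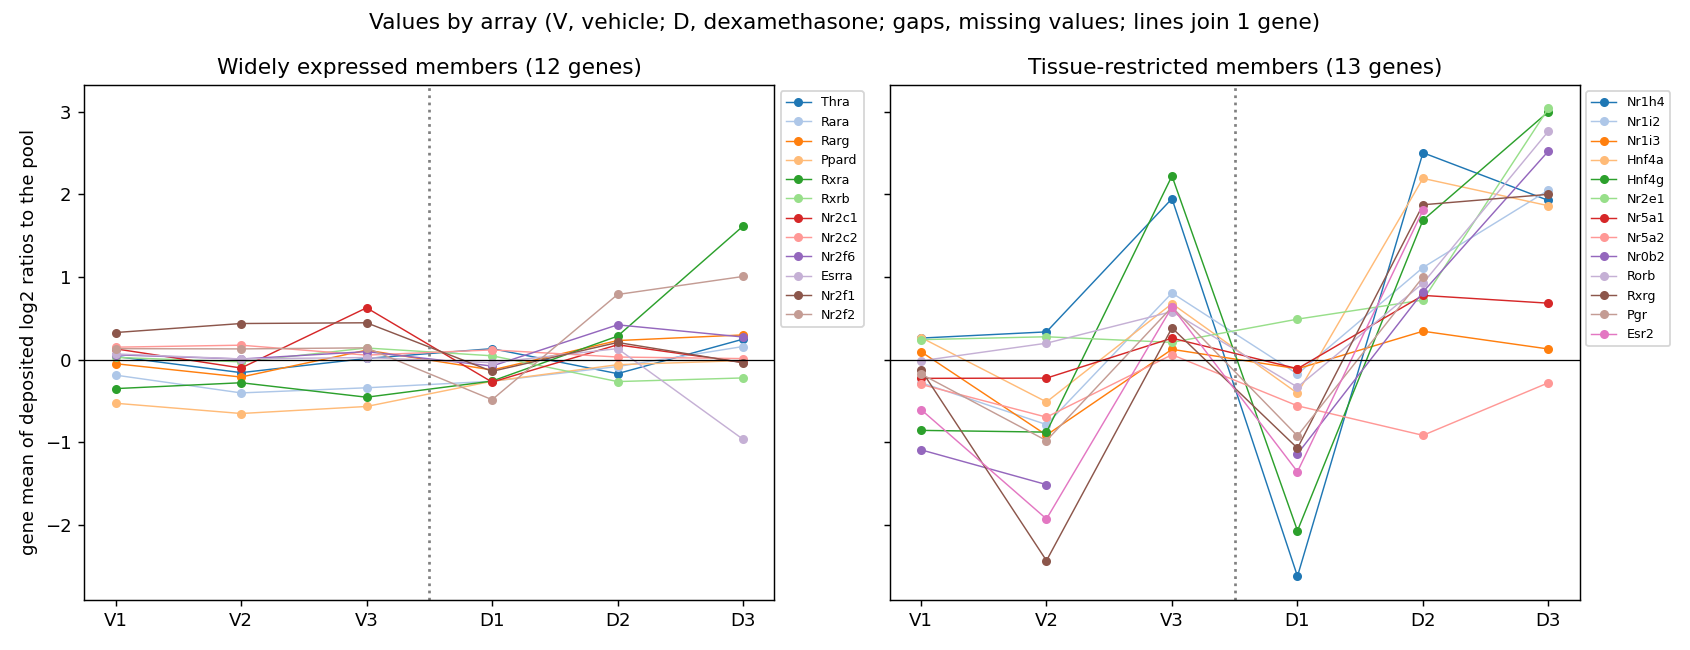
Gene means of the deposited log2 ratios to the pool (vertical axis) on vehicle (V1 to V3) and dexamethasone (D1 to D3) arrays for 12 widely expressed and 13 tissue-restricted members; a line joins the values of 1 gene and does not stand for an order of arrays. Most widely expressed members lie close to 0, with Rxra (1.62 on D3), Nr2f2 (1.01 on D3) and Esrra (-0.96 on D3) as the widest departures, whereas the restricted members fan out on the dexamethasone arrays (median SD 1.41 against 0.22).

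Genes that work with these receptors were taken from lists of textbook partners and targets. Of 10 PPAR target genes measured, 3 were higher and 1 lower at an unadjusted limma p under 0.05, beside 4.43% and 0.995% of all features. The higher ones were the fatty acid carrier Fabp4 (1.91 ± 0.18, SE), the lipase Lpl (2.42 ± 0.70) and the pyruvate dehydrogenase kinase Pdk4 (0.81 ± 0.22), and the lower one was the lipase inhibitor Angptl4 (-1.11 ± 0.24). Fabp4 was called after the low-signal filter (limma adjusted p = 0.0401), while none passed over all probes. That call was lost with median centring (0.0809), the array set block (0.130), the replicate block (0.536) and without any single array other than dexamethasone 1 (0.0950 to 0.472). The glucocorticoid receptor is known to act on several of these genes as well. Of 13 genes of retinoid metabolism and response, 1 was higher at an unadjusted limma p under 0.05, the cell-surface receptor of retinol-binding protein, Stra6 (3.19 ± 0.63, SE, with a value missing), and 1 lower, the retinoic acid carrier Crabp2 (-0.51 ± 0.17). Of 12 enzymes and targets of the vitamin D and thyroid hormone receptors 1 was higher, the transcription factor Klf9 (1.93 ± 0.17), which is also a glucocorticoid target, and 0 were lower. Stra6, Crabp2 and Klf9 had no probe clear of low signal on all 6 arrays. Of 12 LXR targets 0 were higher and 0 lower at an unadjusted limma p under 0.05.

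Of 6 receptors of the superfamily outside the chosen members, 3 were measured, and none had a difference above 0. The glucocorticoid receptor gene Nr3c1 itself differed by -0.89 ± 0.32 (SE; limma unadjusted p = 0.0380, adjusted p = 0.732), with all dexamethasone values below all vehicle values.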

How the data were processed

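RNA of 3 vehicle and 3 dexamethasone cultures was read on 6 two-colour arrays. The submitters' processing notes name limma, without a version; which background correction or normalization it applied is not stated in them. What the authors deposited was read as a log2 ratio per probe, from the sign, decimals and size of the values. On vehicle 3 and the dexamethasone arrays a few deposited values are larger than a log2 ratio can be, so those columns are strictly a score and not a log2 ratio throughout. The number of arrays limits the precision.

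Probes with 1 symbol in the supplied annotation (29456) were averaged per gene; all 40 members' Entrez identifiers matched a RefSeq table with the same symbol. All 27046 features were fitted together in R 4.3.3 with limma 3.58.1 (lmFit, eBayes), without a block or further normalization, two-sided, with Benjamini-Hochberg adjustment over all features. An exact 3 against 3 permutation test cannot go below 0.1 and was not used. The low-signal filter removed 15355 probes and left 17152 features.

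The members and lists were chosen with earlier results of these data known. Values on every array were given for members with an unadjusted p under 0.05 or with groups apart. The same was planned for 17 receptors of the NR4A group or of fat, bone and mesenchymal cells. It was done for all but Nr1h2, which had no single-symbol probe. Non-members were limited to 4 per list. On simulated data with 50 genes changed per size, limma recovered 0%, 6%, 28% and 46% of changes of 1, 2, 3 and 4 on the log2 scale over 27046 features, and 14%, 38%, 70% and 72% over 17152, with 5 and 11 false calls. Alternatives were normalization, filters, blocks, array weights and left-out arrays.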

Additional observations from a re-analysis of the deposited data

How the results depend on the processing

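The 7 members with an unadjusted p under 0.05 or with groups apart (Vdr, Nr4a1, Ppard, Nr4a2, Nr2f1, Rxra and Nr2e1) kept their direction under every alternative run. The groups of all 7 were apart in the main fit, so leaving out an array or adding a block could not change their sign. Their constant direction is therefore no measure of robustness. Of the 38 members, 15 changed sign under at least 1 alternative, and no such count was taken over all features. Members called at an adjusted p under 0.05 numbered 0 over all probes and 1 with the low-signal filter, and 0 to 2 with the filter without 1 array. Members at an unadjusted p under 0.05 numbered 3, beside 5.43% of all features. The count was 5 with the filter (7.46% of all features) and 5 with the filter and median centring (6.57%). With the filter and the array sets as a block it was 5 (5.47%). With each probe tested on its own, 6 members had at least 1 probe under 0.05. Genes with several probes had more chances of this, and no share over all probes was taken, so this count has no background. Without 1 array the members numbered 2 to 16, and with the filter 2 to 9. The highest counts, 16 and 9, came without dexamethasone 1, where 29.2% and 32.9% of all features were under 0.05. The members' median difference of 0.60 was 0.086 after quantile normalization, 0.21 with the array sets as a block, 0.29 with median centring, 0.30 with the filter, and 0.22 to 1.20 without 1 array (0.15 to 0.55 with the filter). Over all features 0 were called, 29 with the filter, 10 with the filter and median centring, 5 with values on all 6 arrays, and 0 to 934 with the filter without 1 array. Those with an unadjusted p under 0.05 numbered 1468, against 2312 with array weights, 886 with the filter and the replicate block, 939 with the filter and the array set block, 695 to 6947 without 1 array, and 530 to 5650 with the filter without 1 array (654 without vehicle 1 and 725 without vehicle 3). The cause of these changes was not tested. The fits with the filter and a block or a left-out array, and those of each probe, were chosen after seeing the data.

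The replicate numbers were not taken to pair the samples: deviations of same-numbered arrays correlated at 0.30, -0.10 and 0.24 across 22549 features, and vehicle 2 correlated best with dexamethasone 1 (0.19). With a replicate block 0 members were called and 2 had an unadjusted p under 0.05; Vdr's limma adjusted p was 0.707.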
